A study of Mus musculus with 18 samples.

Results

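The pyruvate dehydrogenase complex and the oxoglutarate dehydrogenase complex were examined through the 7 genes of their subunits: Pdha1, Pdhb, Pdhx, Dlat, Dld, Dlst and Ogdh. The genes were chosen with earlier results of these data known, so shares of called probe sets set beside those of all are descriptive. Every probe set (a group of short probes for 1 transcript) that the platform annotation assigns to one of these symbols alone was taken, whatever its values. This gave 11 of the 22690 probe sets on the array, for 6 of the 7 genes. Pdhx had 0 such probe sets and is not analysed here. Of the 11 probe sets, 10 had a signal above the array's median on at least 3 of the 18 arrays and were tested. The second Pdha1 probe set passed that level on 2 arrays and is given as values.

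Both complexes sit in the mitochondrial matrix, split carbon dioxide from an alpha-keto acid and join the remainder to coenzyme A. In each, a thiamine-dependent decarboxylase begins the reaction, an acyltransferase that carries lipoate forms the core and takes up the product, and dihydrolipoyl dehydrogenase returns the lipoate to its oxidised state. The pyruvate dehydrogenase complex brings the carbon of glucose and lactate into the tricarboxylic acid (TCA) cycle. The oxoglutarate dehydrogenase complex is a step of the cycle itself, at the point where carbon of glutamate enters. Neurons, whose energy comes largely from mitochondria, depend on both.

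RNA was measured in motor neurons of the lumbar spinal cord, from mice carrying the human SOD1 gene with the G93A mutation and from their littermates without the transgene, called controls. The transgene models an inherited form of amyotrophic lateral sclerosis, in which motor neurons degenerate. The animals were 60, 90 or 120 days old, with 3 mice, and so 3 arrays, in each of the 6 groups. For each mouse 1000 motor neurons were cut by laser from frozen sections 10 µm thick that had been stained with toluidine blue. No source used here gives the strain, the sex, or the promoter and copy number of the transgene, and cells were chosen by stain and not by a marker.

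The capture was checked against cell type markers. Of 9 motor neuron markers with a probe set, 7 were tested, and Prph, Nefl, Nefm and Nefh lay above the array median on all 18 arrays. Ret lay above it on 13 arrays, Isl1 on 9 and Mnx1 on 8. The cholinergic marker Slc18a3 lay above it on 0 arrays and Slc5a7 on 2. Markers of other cells were also present: 10 of 10 astrocyte, 8 of 8 oligodendrocyte and 8 of 10 microglial probe sets were tested. To be tested is a low bar, which 16565 of the 22690 probe sets passed and which 1 group of arrays can meet alone. Above the array median on all 18 arrays were 3 of the astrocyte, 5 of the oligodendrocyte and 3 of the microglial markers. The samples thus also held RNA of other cells, and fewer cells of a type cannot be told apart from less RNA per cell. Within a group, arrays had correlations of 0.641 to 0.838 (median 0.742) over the tested probe sets. Arrays of different groups had 0.539 to 0.864 (median 0.685), so the ranges overlapped widely. Summed marker signals, here and below, add linear values, so the brightest genes weigh most and a sum need not speak for its list. Over the 18 arrays Nefl ran from 6044 to 26846 among the motor neuron markers, and Csf1r from 635 to 13708 among the microglial ones. The array of G93A replicate 1 at 60 days had the lowest level of the 18 hybridization-control probe sets of any array (mean log2 7.75) and the lowest summed motor neuron marker signal (7399). Called subunit results that use it, and the Sucla2 result, are given with and without it.

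At 60 days 2 of the 10 tested probe sets passed the test for genotype, where 0.688% of all tested probe sets did. They were 1 of the 3 of Dlat and 1 of the 2 of Dlst, both E2 acyltransferase genes. Dlst, the E2 of the oxoglutarate dehydrogenase complex, was 9.18-fold higher in G93A than in control mice on probe set 1423710_at, and Dlat, the E2 of the pyruvate dehydrogenase complex, was 2.52-fold higher on probe set 1452005_at. The Dlst controls of that age lay below their array medians with no detection call used here, so the fold rests on dim values, and over the alternatives run its log2 difference ranged from 2.35 to 3.66. At 90 days 0 of the 10 probe sets passed the test, and at 120 days 0 of 10 passed, although both E2 probe sets and Pdhb had lower mean signals in G93A mice. The genotype difference of both E2 probe sets fell between 60 and 120 days. The other probe sets of these genes, 2 of Dlat and 1 of Dlst, did not pass at 60 days or in that change. The E1 subunits Pdha1, Pdhb and Ogdh and the shared E3, Dld, had 0 called differences between genotypes.

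**Figure D1:**
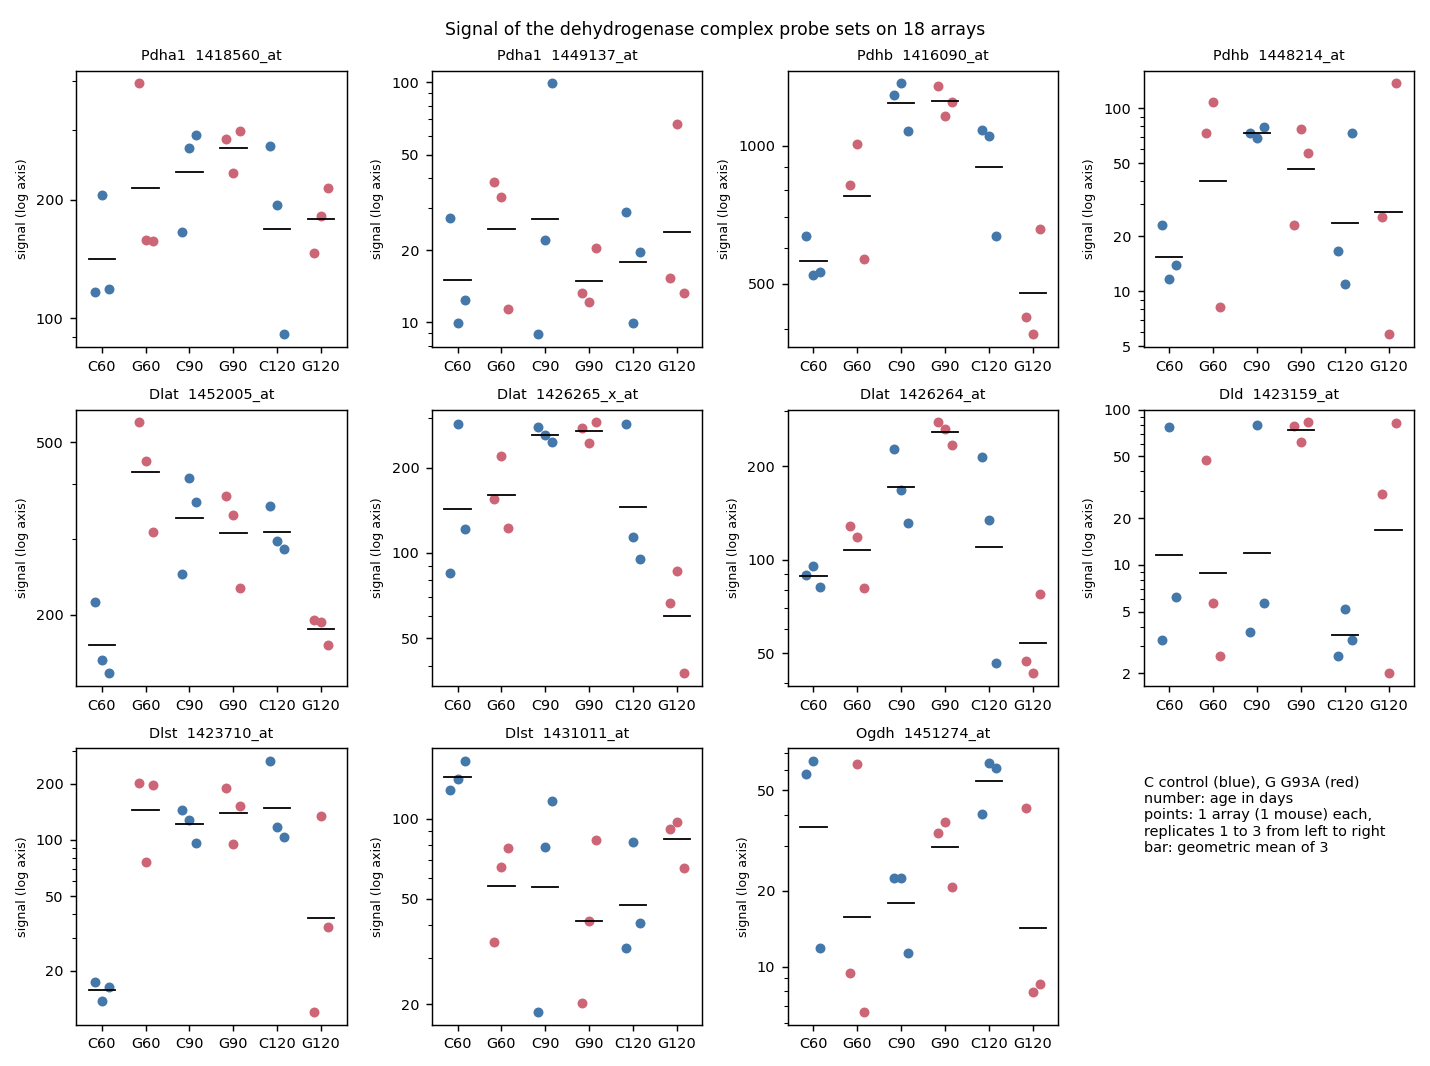
Signal of each of the 11 probe sets on every array, on log axes that differ between panels, by group (C control, G G93A, with age in days); points are single mice and bars geometric means of 3. The Dlst probe set 1423710_at is at 13.7 to 17.5 in the controls of 60 days and at 76.6 to 201 in the G93A mice of that age.

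Pdha1 encodes the alpha chain of the pyruvate decarboxylase E1, which holds the serines that pyruvate dehydrogenase kinases phosphorylate. On probe set 1418560_at its signal was 395, 158 and 157 in the 3 G93A mice of 60 days and 117, 205.5 and 119 in the controls. At 90 days it was 284, 233 and 298 in G93A mice and 165.5, 270.5 and 291.5 in controls. At 120 days it was 146, 182 and 214 in G93A mice and 273, 193.5 and 91.1 in controls. The genotypes overlapped at all 3 ages, and 1 G93A mouse of 60 days had the highest value of the 18. The log2 differences of 0.59 ± 0.42 (SE), 0.20 ± 0.42 and 0.08 ± 0.42 did not pass the test (limma, adjusted p = 0.601 at 60 days), and the 95% interval at 60 days ran from -0.28 to 1.46. The last of these differences turned to -0.17 when each array was centred on its median, and the first to -0.06 when the hybridization-control level was added as a covariate. The second Pdha1 probe set, 1449137_at, was low throughout, at 8.9 to 99.1, with a single control mouse of 90 days at 99.1 and a G93A mouse of 120 days at 66.9.

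Pdhb encodes the beta chain of the same E1. Its probe set 1416090_at was bright, with a mean log2 signal at percentile 97.0 of all probe sets. At 60 days its signal was 821, 1006 and 566 in G93A mice and 636, 522 and 530.3 in controls. At 90 days it was 1346, 1160.2 and 1244 against 1286.5, 1366 and 1074. At 120 days it was 424, 388 and 659 in G93A mice and 1079, 1049.6 and 636 in controls. The genotypes overlapped at every age. At 120 days G93A replicates 1 and 2 lay below all controls, while G93A replicate 3 lay just above control replicate 3. The log2 differences by age were 0.47, 0.01 and -0.91, each ± 0.29, and the last did not pass after adjustment (limma, unadjusted p = 0.00458, adjusted p = 0.210). The other Pdhb probe set, 1448214_at, was dim, between 5.8 and 137 on single arrays. Its differences of 1.38, -0.66 and 0.20 had standard errors of 1.05, larger than all but the first, and the last turned to -0.05 with quantile normalization and with centring.

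Dlat encodes the lipoate-bearing E2 core of the pyruvate dehydrogenase complex. It has 3 probe sets, for which the platform annotation lists the same source sequence, and they differed in pattern. On 1452005_at the signal at 60 days was 557, 454 and 310.1 in G93A mice and 214, 157 and 146.5 in controls. All 3 G93A mice lay above all 3 controls, and the log2 difference of 1.33 ± 0.32 passed the test (95% interval 0.68 to 1.98, limma, adjusted p = 0.0462). At 90 days the signal was 376, 340.5 and 231 against 249, 414 and 364, and the genotypes overlapped. At 120 days it was 194.5, 193 and 170.3 in G93A mice and 357, 296 and 284.5 in controls. There all 3 G93A mice lay below all 3 controls, and the log2 difference of -0.75 ± 0.32 did not pass (limma, adjusted p = 0.340).

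The other Dlat probe sets were not higher in G93A mice at 60 days beyond their error. On 1426265_x_at, whose suffix marks possible cross-hybridization, the signal was 154, 219 and 123 in G93A mice and 85.1, 284 and 121 in controls. On 1426264_at it was 129, 119 and 81 in G93A mice and 89.4, 95.6 and 81.8 in controls. The genotypes overlapped on both, with log2 differences of 0.17 ± 0.46 and 0.27 ± 0.47 (limma, adjusted p = 0.917 and 0.855), and the second turned to -0.03 with the hybridization-control level as a covariate. At 120 days both had lower means in G93A mice. The signal of 1426265_x_at was 66.7, 86.2 and 37.6 in G93A mice and 286, 114 and 95.1 in controls, with no overlap. That of 1426264_at was 47.1, 43.1 and 77.6 in G93A mice and 214, 134 and 46.5 in controls, where control replicate 3 lay among the G93A mice. The log2 differences were -1.28 ± 0.46 and -1.03 ± 0.47 and did not pass (limma, adjusted p = 0.255 and 0.376). Both leaned on control replicate 1 of 120 days, without which they were -0.79 and -0.55, and without control replicate 3 the second was -1.65.

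Dld encodes dihydrolipoyl dehydrogenase, the E3 that both complexes share with the branched-chain dehydrogenase and the glycine cleavage system. Its probe set 1423159_at was dim and uneven, above the array median on 7 of 18 arrays. At 60 days its signal was 47.3, 5.7 and 2.6 in G93A mice and 3.3, 77.3 and 6.2 in controls. At 90 days it was 78.9, 62.3 and 83.3 in G93A mice and 3.7, 79.6 and 5.7 in controls, and at 120 days 28.7, 2 and 82.5 against 2.6, 5.2 and 3.3. In 4 of the 6 groups low values (6.2 or less) and high values (28.7 or more) occurred side by side, and only the G93A mice of 90 days and the controls of 120 days were each of one level. The log2 differences of -0.39, 2.64 and 2.24 had standard errors of 1.46, and none passed the test (limma, adjusted p = 0.941, 0.997 and 0.563). The 95% interval at 90 days ran from -0.38 to 5.66, so this probe set could not separate no difference from a large one.

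Ogdh encodes the thiamine-dependent E1 of the oxoglutarate dehydrogenase complex. On 1451274_at its signal at 60 days was 9.4, 63.3 and 6.6 in G93A mice and 58.1, 65.2 and 11.9 in controls. At 90 days it was 33.8, 37.5 and 20.7 against 22.5, 22.5 and 11.3. At 120 days it was 42.5, 7.9 and 8.5 in G93A mice and 40.2, 64.2 and 61.4 in controls. The genotypes overlapped at each age, and the probe set lay above the array median on 6 of 18 arrays. The log2 differences were -1.17, 0.73 and -1.93, each ± 0.98, and did not pass (limma, adjusted p = 0.667, 0.997 and 0.431).

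Dlst encodes dihydrolipoyl succinyltransferase, the lipoate-bearing E2 core of the oxoglutarate dehydrogenase complex. On 1423710_at its signal at 60 days was 201, 76.6 and 196 in G93A mice and 17.5, 13.7 and 16.3 in controls. The 3 controls lay close together, at a mean log2 signal of 3.98 ± 0.18 (SD, n = 3), and the lowest G93A mouse was far above the highest of them. All 3 control values lay below the median signal of their arrays, which was 58 to 64. The log2 difference of 3.20 ± 0.66 passed the test (95% interval 1.84 to 4.55, limma, adjusted p = 0.0227). At 90 days the signal was 190.1, 94.6 and 152 in G93A mice and 145, 128 and 95.8 in controls, an overlap with a log2 difference of 0.21 ± 0.66. At 120 days it was 12, 135 and 34.4 in G93A mice and 264, 118 and 104 in controls. G93A replicate 2 lay among the controls and the others below them, and the log2 difference of -1.95 ± 0.66 did not pass (limma, adjusted p = 0.234). Without G93A replicate 1 of 120 days it was -1.12.

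The second Dlst probe set, 1431011_at, for which the annotation lists another source sequence, ran the other way. Its signal at 60 days was 34.4, 65.8 and 77.5 in G93A mice and 128, 141 and 165 in controls, so that all 3 G93A mice lay below all 3 controls. The log2 difference was -1.37 ± 0.66 and did not pass (limma, adjusted p = 0.393). At 90 days the signal was 20.3, 41.1 and 83.2 against 18.7, 78.6 and 117, and at 120 days 92, 97.6 and 65.5 against 32.7, 81.6 and 40.4. Both later comparisons overlapped, with log2 differences of -0.43 and 0.82, each ± 0.66. The 2 Dlst probe sets correlated at r = -0.64 over the 18 arrays, and at -0.21 once group means were removed. Whether they read different transcripts of Dlst was not tested, and probe sequences were not used here.

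**Figure D2:**
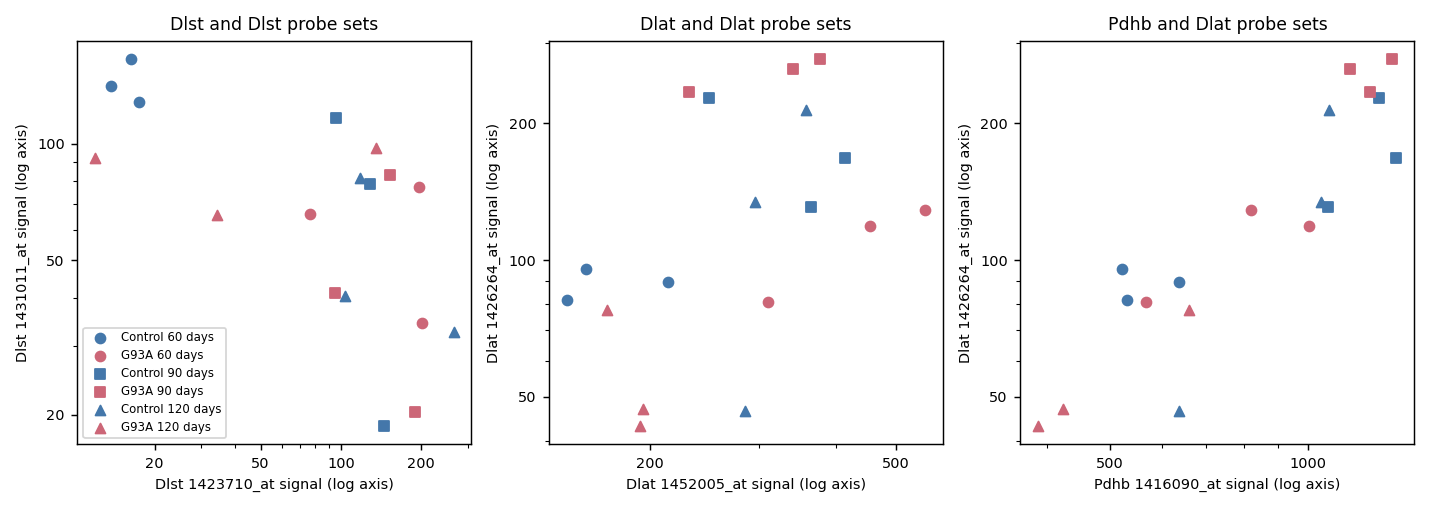
Signals of 3 pairs of probe sets on the 18 arrays, on log axes; each point is 1 mouse, with colour for genotype and shape for age. The 2 Dlst probe sets run opposite ways (r = -0.64), while Pdhb 1416090_at and Dlat 1426264_at rise together (r = 0.90).

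Across the 18 arrays the bright Pdhb probe set followed Dlat 1426264_at at r = 0.90, and at 0.81 within groups. Dlat 1426264_at and 1426265_x_at correlated at 0.77, but at 0.37 within groups. The Dlat probe set that was higher at 60 days, 1452005_at, followed these at only 0.48 and 0.46, and at 0.20 and 0.09 within groups. It followed Dlst 1423710_at at 0.71, and at 0.03 within groups, so that the likeness of both E2 probe sets lay in their group means. These coefficients describe the same 18 libraries, whose quality the probe sets share.

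Promoter sequence is shown for the 3 genes with a probe set that passed a test, from RefSeq on mouse build GRCm38.p6, as the 250 bases before the annotated start, written 5′ to 3′ on the strand of the gene. All 7 subunit genes have an entry. Dlst lies on the plus strand at chr12:85110583-85110832, Dlat on the minus strand at chr9:50659781-50660030 and Pdhb on the minus strand at chr14:8172993-8173242. Capitals mark matches on either strand to GGGCGG (the GC box) or CCAAT (the CCAAT box).
Dlst: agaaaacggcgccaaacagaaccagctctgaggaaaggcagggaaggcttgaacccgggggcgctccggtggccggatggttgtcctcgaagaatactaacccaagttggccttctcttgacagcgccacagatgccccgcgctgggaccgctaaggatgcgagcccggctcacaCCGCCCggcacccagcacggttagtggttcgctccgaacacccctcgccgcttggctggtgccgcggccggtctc
Dlat: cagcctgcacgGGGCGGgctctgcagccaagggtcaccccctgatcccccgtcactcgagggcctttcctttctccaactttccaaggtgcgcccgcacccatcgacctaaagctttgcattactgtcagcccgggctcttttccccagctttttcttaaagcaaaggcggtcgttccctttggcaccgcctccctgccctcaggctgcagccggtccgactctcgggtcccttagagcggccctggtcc
Pdhb: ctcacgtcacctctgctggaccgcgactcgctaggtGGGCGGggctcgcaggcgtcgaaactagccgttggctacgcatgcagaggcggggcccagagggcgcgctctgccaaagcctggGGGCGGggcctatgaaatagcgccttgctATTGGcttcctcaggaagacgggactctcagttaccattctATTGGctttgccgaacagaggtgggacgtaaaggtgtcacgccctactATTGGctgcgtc
Dlst and Dlat each held 1 GC box and 0 CCAAT boxes, the Dlst match being on the reverse strand. Pdhb held 2 GC boxes and 3 CCAAT boxes, all 3 on the reverse strand, where they read ATTGG. Of 32851 promoter windows of this length, 32.7% held a GC box, 33.8% a CCAAT box and 2.79% at least 3 CCAAT boxes. None of the 3 held AAGGTCA, an estrogen-related receptor site found in 4.08% of windows, the exact nuclear respiratory factor 1 site, found in 0.782%, or TGACGTCA, the cAMP response element found in 1.55%. These are matches of letters and not measured sites.

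At 60 days, then, 2 of the 10 subunit probe sets were called higher and 0 lower, where 0.688% of all 16565 tested probe sets were called and 0.67% called higher. Of the 10 differences 7 were positive, with a median of 0.37, and the median over all tested probe sets was -0.07. With arrays centred on their medians the latter became 0.14, and with quantile normalization 0.04. Centring shifts every difference of a comparison by the same amount, so the subunit median moved up with it and the gap stayed. The subunit median with quantile normalization is not given here. Groups did not overlap for 3 of the 10, with 2 higher and 1 lower, where 18.5% of all probe sets did not overlap (7.85% higher and 10.6% lower). Both called probe sets were called again with quantile normalization and with centring. The calls depended on single arrays. Without G93A replicate 1 of 60 days, the array that stood apart, Dlst was 2.96 (adjusted p = 0.169, limma) and Dlat 1.14 (adjusted p = 0.300, limma). Without G93A replicate 3 Dlst was 2.98 and without control replicate 3 it was 3.22, with adjusted p = 0.0590 and 0.0615 (limma). Dlat was 1.29 without G93A replicate 2, and 1.27 and 1.22 without control replicates 2 and 3, with adjusted p from 0.0960 to 0.168 (limma). It also lost its call, at 1.33 and adjusted p of 0.0533 to 0.0618 (limma), without any one of the 3 G93A arrays of 90 days, the 3 of 120 days or control replicate 2 of 120 days.

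Other measures moved with genotype at this age. The hybridization-control level was 7.75 to 10.7 in G93A arrays and 10.7 to 11.5 in control arrays, with no overlap (exact permutation test, two-sided, p = 0.1, the smallest that 3 against 3 allows). The Gapdh ratio, log2 of the 3' probe set over the 5' one and a measure of RNA integrity and amplification, was 3.88 to 4.63 against 3.00 to 3.66. The same ratio overlapped for actin, at 4.79 to 5.39 against 4.88 to 7.75, where the mean was lower in G93A arrays (5.15 against 6.28). It also overlapped for pyruvate carboxylase, at 1.68 to 2.91 against 1.13 to 3.48. The summed signal of the 10 astrocyte markers was 1549 to 2998.5 against 1219 to 1467, that of the 8 oligodendrocyte markers 8356 to 10927 against 5215 to 7901.5, and that of the motor neuron markers 7399 to 19086 against 18806 to 27988. Some markers of these lists were dim on single arrays, with lowest signals over the 18 arrays of 4 for Aldh1l1 and 6.7 for Mog. With that control level as a term of the model, Dlst was 2.71 (limma, adjusted p = 0.463) and Dlat 0.92 (limma, adjusted p = 0.645). With the Gapdh ratio they were 2.99 and 1.21 (limma, adjusted p = 0.187 and 0.248). The part of the marker signals in these differences was not tested.

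**Figure D3:**
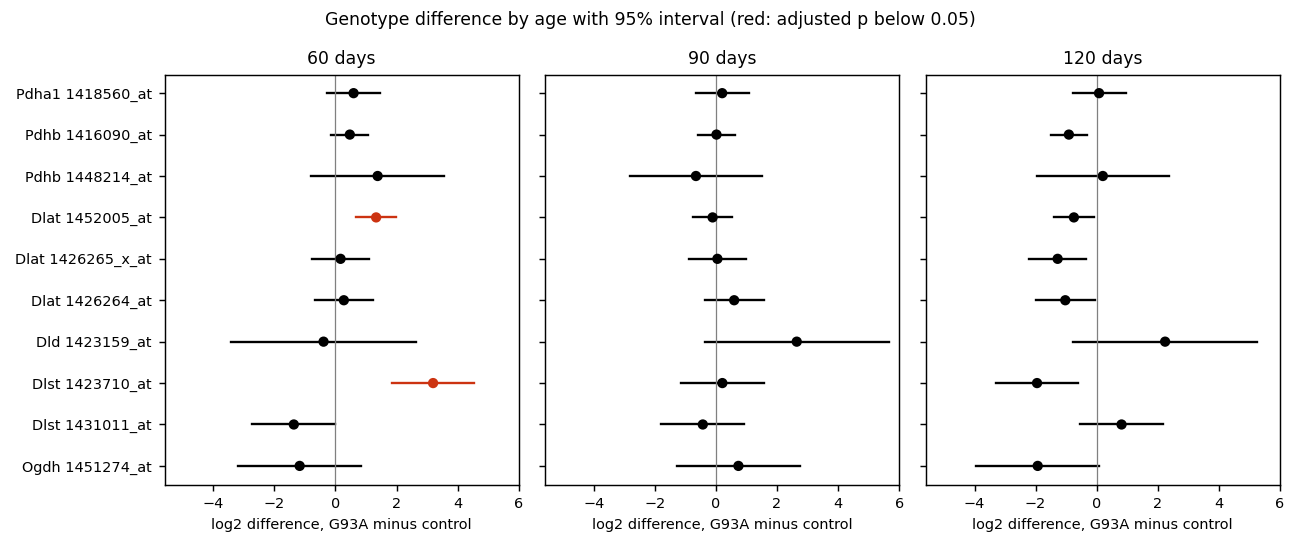
Log2 difference, G93A minus control, of the 10 tested probe sets at each age, with 95% intervals from the fit over 18 arrays and red for an adjusted p below 0.05. Dlat 1452005_at and Dlst 1423710_at are red at 60 days (1.33 and 3.20), none is red at 90 or 120 days, and the intervals of Dld span several log2 units.

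At 90 days 0 of 10 probe sets were called, as were 0% of all probe sets, and 0 had an unadjusted p below 0.05, against 4.56% of all. The differences ran from -0.66 for Pdhb 1448214_at to 2.64 for Dld, with a median of 0.12. Dlat 1426264_at was the only one without overlap, where 11.5% of all had none, at 277, 263 and 234 in G93A mice and 227, 168 and 131 in controls. Its log2 difference was 0.59 ± 0.47 (limma, adjusted p = 0.997). Pdhb 1416090_at gave the tightest result, with a 95% interval from -0.59 to 0.61. At this age too the summed astrocyte signal did not overlap, at 2783 to 3356 in G93A arrays and 1310.3 to 2503 in controls, nor did that of the interneuron markers, at 773 to 919 against 439.5 to 703. Their part was not tested.

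At 120 days 0 of 10 probe sets were called, where 0.0241% of all were. Of the 10, 5 had a lower mean in G93A mice at an unadjusted p below 0.05 and 0 a higher one, against 5.98% of all probe sets on the lower side and 12.2% on either. These 5 were Pdhb 1416090_at, the 3 Dlat probe sets and Dlst 1423710_at, so they stand for 3 genes. Of them 1452005_at and 1426265_x_at, both of Dlat, had no overlap on the lower side, where 6.2% of all had none. The median of the 10 differences was -0.83, against 0.09 over all tested probe sets. With arrays centred on their medians the median over all became -0.17. Centring shifts every difference of a comparison by the same amount, so the subunit median moved down with it and the gap stayed. The 5 kept their sign under each alternative run, many of which leave the estimate as it is. At this age the summed signal of the microglial markers, in which bright genes such as Csf1r weigh most, was 9171 to 16070 in G93A arrays. In controls it was 3445 to 5770, with no overlap. That of the motor neuron markers was 8671 to 16343 against 14354 to 28616. The array median was 52 to 56 against 37 to 47.8, also with no overlap. The part of these measures in the differences was not tested.

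Taken over the 3 ages, 0 of 10 probe sets differed between the 9 G93A and the 9 control mice, where 0.0121% of all were called, and 0 had an unadjusted p below 0.05, against 7.74% of all. The mean differences lay between -0.79 for Ogdh and 1.50 for Dld. For Dlst 1423710_at the mean difference was 0.48 ± 0.38 and for Dlat 1452005_at 0.16 ± 0.18, since their differences at 60 and 120 days had opposite signs.

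The change of the genotype difference from 60 to 120 days was tested directly. It was called lower for 2 of the 10 probe sets, where 2.02% of all were called and 1.76% in this direction. For Dlst 1423710_at the log2 difference fell by 5.15 ± 0.93 (limma, adjusted p = 0.00595), from 3.20 to -1.95. For Dlat 1452005_at it fell by 2.08 ± 0.45 (limma, adjusted p = 0.0193), from 1.33 to -0.75. Pdhb 1416090_at changed by -1.38 ± 0.41 and did not pass (limma, adjusted p = 0.0795). Over the alternatives run its adjusted p (limma) reached 0.318, and without G93A replicate 1 of 60 days it was -1.34 (limma, adjusted p = 0.170). It passed when arrays were centred on their medians, at -1.85 (limma, adjusted p = 0.0256), and was -0.89 with quantile normalization. It also passed with 1 mouse fewer: at -1.61 without the third G93A mouse of 60 days, at -1.61 without the third G93A mouse of 120 days, and at -1.63 without the third control of 120 days (limma, adjusted p from 0.0283 to 0.0494). The other Dlat probe sets had changes of the same sign, at -1.44 ± 0.65 for 1426265_x_at and -1.30 ± 0.66 for 1426264_at, and did not pass (limma, adjusted p = 0.249 and 0.312). Dlst 1431011_at moved the opposite way, by 2.18 ± 0.93, and did not pass (limma, adjusted p = 0.227). Without G93A replicate 1 of 60 days the change was -4.91 for Dlst, which still passed (limma, adjusted p = 0.0333), and -1.89 for Dlat, which did not (limma, adjusted p = 0.0734). Dlat also lost the call when the third control of 60 days (-1.97) or the first control of 120 days (-1.98) was left out.

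Age was then followed within each genotype. These comparisons use the same arrays of 60 days as the genotype difference at that age, so they are not separate evidence. In controls from 60 to 90 days 2 of 10 probe sets were called higher, where 1.61% of all were called and 1.36% higher. Pdhb 1416090_at rose by 1.14 ± 0.29 (limma, adjusted p = 0.0453) and Dlst 1423710_at by 2.94 ± 0.66 (limma, adjusted p = 0.0249). On both all 3 older controls lay above all 3 younger ones. Of the 10 probe sets 5 were higher and 1 lower without overlap in this step, and the share over all probe sets is not given here. Dlst lost its call without control replicates 2 or 3 of 60 days (2.84 and 2.97) or control replicates 1 or 2 of 90 days (2.82 and 2.90). Pdhb lost it without any one control of 60 days (1.23, 1.09 and 1.10) or control replicates 1 or 2 of 90 days (1.11 and 1.07), and, at 1.14, without any G93A array of 90 days, G93A replicates 1 or 2 of 120 days or the second control of 120 days. In controls from 60 to 120 days 1 of 10 was called higher, where 6.71% of all were called and 3.87% higher. This was Dlst 1423710_at, which rose by 3.23 ± 0.66 (limma, adjusted p = 0.00483), and it lost its call with the Gapdh ratio in the model, at 2.94 (limma, adjusted p = 0.107). The second Dlst probe set, 1431011_at, was lower without overlap in both steps, at -1.38 and -1.60, each ± 0.66, and did not pass (limma, adjusted p = 0.328 and 0.133). Dlat 1452005_at was higher without overlap in both steps, at 0.98 and 0.87, each ± 0.32, and did not pass (limma, adjusted p = 0.128 and 0.0916). Other measures of the control arrays moved with age from 60 to 120 days without overlap. The Gapdh ratio was 3.00 to 3.66 at 60 days and 4.22 to 4.73 at 120, and the summed oligodendrocyte signal was 5215 to 7901.5 and 14699.6 to 22125. The summed astrocyte signal was 1219 to 1467 and 1501 to 2363, and the array median 58 to 64 and 37 to 47.8. With arrays centred on their medians Pdhb 1416090_at (1.14) and Dlat 1452005_at (1.33) also passed in this step (limma, adjusted p = 0.0285 and 0.0199). With quantile normalization Pdhb was 0.18 and did not pass (limma, adjusted p = 0.735). The same ratio overlapped for actin, at 4.88 to 7.75 and 4.62 to 8.40, and for pyruvate carboxylase, at 1.13 to 3.48 and 1.56 to 4.84. The part of the marker signals was not tested.

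In G93A mice from 60 to 90 days 0 of 10 were called, as were 0% of all probe sets. The unadjusted p was below 0.05 for Pdhb 1416090_at (0.68 ± 0.29), Dlat 1426264_at (1.26 ± 0.47) and Dld (3.06 ± 1.46), against 5.49% of all probe sets, and without G93A replicate 1 of 60 days these were 0.73, 1.39 and 4.27. From 60 to 120 days 1 of 10 was called lower, where 2% of all were called and 0.996% lower. Dlat 1452005_at fell by 1.21 ± 0.32 (limma, adjusted p = 0.0464), from signals of 310.1 to 557 down to 170.3 to 194.5. Its call was lost at values of -1.24 to -1.02 without G93A replicates 1 or 2 of 60 days, any one G93A array of 90 or 120 days, control replicate 1 of 60 days, control replicate 2 of 90 days or the second control of 120 days. Dlst 1423710_at moved by -1.92 ± 0.66 and did not pass (limma, adjusted p = 0.127), although it passed at -2.83 without G93A replicate 2 of 120 days (limma, adjusted p = 0.0321), and was -1.09 without G93A replicate 1 of that age. The hybridization-control level of the G93A arrays was 7.75 to 10.68 at 60 days and 11.34 to 11.99 at 120, without overlap. With that level in the model the Dlat change was -0.68 and lost its call (limma, adjusted p = 0.498). The summed microglial signal of these arrays was 2062 to 2854 at 60 days and 9171 to 16070 at 120. The oligodendrocyte one was 8356 to 10927 and 13046 to 19996, both without overlap. The part of these marker signals was not tested.

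**Figure D4:**
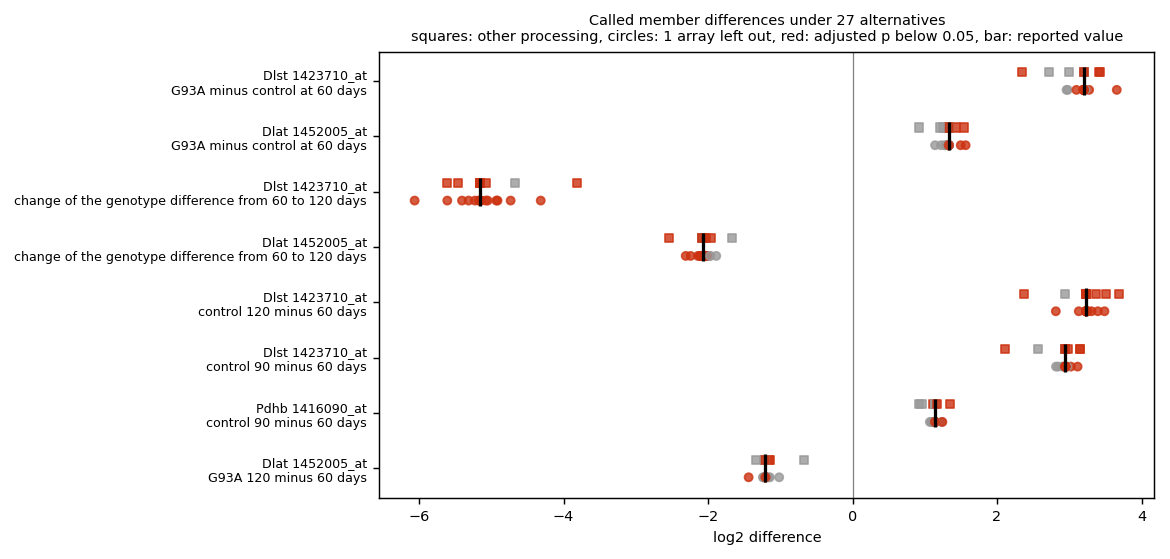
Log2 differences of the 8 called results under 27 alternatives each, with squares for other processing, circles for 1 array left out, red for an adjusted p below 0.05 and a bar at the reported value. No point crosses 0, but many of the alternatives leave the estimate as it is. The Dlst change from 60 to 120 days is red in 26 of 27, and the Dlat difference at 60 days in 10 of 27.

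Put in order of geometric mean signal, the 6 groups of Dlst 1423710_at ran from 148 in controls of 120 days through 145 in G93A mice of 60 days, 139.8 in G93A of 90 days and 121 in controls of 90 days to 38.2 in G93A of 120 days and 15.8 in controls of 60 days. Each neighbouring pair in that order overlapped, the last because G93A replicate 1 of 120 days, at 12, lay below the controls of 60 days. For Dlat 1452005_at the order was 428 in G93A of 60 days, 335 in controls of 90 days, 311 in controls of 120 days, 309 in G93A of 90 days, 185 in G93A of 120 days and 170.1 in controls of 60 days. Only the step from G93A of 90 to G93A of 120 days had no overlap. The controls of 60 days and the G93A mice of 120 days thus had the lowest means on both E2 probe sets. Pdhb 1416090_at had the same 2 groups at the bottom in the other order, at 560.4 and 477, and the 90-day groups on top, at 1248 in G93A mice and 1236 in controls, with every neighbouring pair overlapping. For Pdha1 1418560_at the means spanned 142 to 270.4, for Ogdh 14.2 to 54.1 and for Dld 3.55 to 74.3, and all neighbours overlapped.

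For each gene the genes of most similar signal over the 18 arrays were taken, among 10050 others. Dlst 1423710_at was closest to Lrrn1 (r = 0.94), Hmgn3 (0.93) and Pgrmc1 (0.89). Pdhb was closest to Laptm4b, Vdac3 and Extl2 (each 0.94). Dlat 1452005_at was closest to Vcl (0.87), Pttg1 and Wac (each 0.86), and Pdha1 to Ppp2r5c (0.83), Ddx3x and Rab33b (each 0.81). For the dimmer Ogdh these were Rassf5 (0.80), Snapc2 (0.75) and Hmgn5 (0.73), and for Dld Haus3 (0.74), Gpx8 and Smim8 (each 0.72).

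The enzymes that control, feed or surround the complexes were described from 5 lists, with each gene read from its brightest tested probe set. Between genotypes 0 genes of these lists were called at 60, 90 or 120 days or over the mean of ages, where 62 of 10051 genes were called higher and 3 lower at 60 days. The pyruvate dehydrogenase kinases and phosphatases had 3 of 7 genes tested. Pdk1, a kinase that switches E1 off, had a difference of 1.05 ± 0.51 at 60 days with no overlap (limma, adjusted p = 0.400), while Pdk2 stood at -0.42 and Pdk4 at 0.05. Of the pyruvate transport and pyruvate enzyme list 7 of 8 were tested. Mpc1, a subunit of the mitochondrial pyruvate carrier, was at 1.53 ± 0.68 at 60 days and -1.87 ± 0.68 at 120 days, with no overlap at either age (limma, adjusted p = 0.345 and 0.266), and its change of -3.40 ± 0.97 did not pass (limma, adjusted p = 0.0663). Pcx, pyruvate carboxylase, was at -0.76 at 60 days, also without overlap.

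The lipoate list had 4 of 8 genes tested, with medians of 0.12, -0.05 and 0.11 at the 3 ages, and Lias, which makes lipoate, at 1.59 ± 0.89 at 60 days (limma, adjusted p = 0.479). The related complexes had 4 of 11 tested, with medians of 0.49, 0.34 and -0.14. Bckdhb, the E1 beta chain of the branched-chain complex, was at 1.87 ± 0.73 at 60 days without overlap (limma, adjusted p = 0.263). The TCA cycle enzymes outside the complexes had 12 of 14 tested, with medians of 0.32, 0.30 and -0.20, against -0.06, 0.00 and 0.07 over all genes. At 60 days Sucla2 was at 1.74 ± 0.56, Fh1 at 0.93 ± 0.36 and Idh3g at -1.32 ± 0.33, each without overlap (limma, adjusted p = 0.156, 0.263 and 0.0597). At 120 days Sdha was at -1.38 ± 0.42, Sdhd at -2.98 ± 0.96 and Fh1 at -0.95 ± 0.36, again without overlap (limma, adjusted p = 0.191, 0.212 and 0.287). In the change from 60 to 120 days 22 of 10051 genes were called higher and 188 lower. Sucla2, which encodes a succinyl-CoA synthetase subunit of the step after the oxoglutarate dehydrogenase complex, was among those called lower. The genotype difference of Sucla2 fell by 3.13 ± 0.79 (limma, adjusted p = 0.0393). It has 1 tested probe set, so the mean of all probe sets of a gene, under which 0 genes of the TCA list were called in that change, leaves its difference as it is and alters only its error and adjusted p. Without G93A replicate 1 of 60 days it was -2.87 (limma, adjusted p = 0.129), and it passed in 15 of 27 alternatives. Leaving out the second G93A mouse or the third control of 60 days, the second or the third G93A mouse of 90 days, the first or second G93A mouse of 120 days or the first control of that age also ended the call. In controls from 60 to 120 days 391 of 10051 genes were called higher and 284 lower. Among them Cs rose by 1.11, Pkm by 1.14 and Bckdhb by 2.49, and Idh3g fell by 1.33 (limma, adjusted p = 0.0323, 0.0418, 0.0403 and 0.0171). These passed in 19, 14, 15 and 21 of 27 alternatives, and each call ended when some single control of 60 days, or the first control of 120 days, was left out. With the Gapdh ratio in the model Pkm (1.05), Bckdhb (1.48) and Idh3g (-1.42) lost the call (limma, adjusted p = 0.285, 0.484 and 0.107). Cs kept it there, at 1.56 (limma, adjusted p = 0.0342), and lost it with quantile normalization, at 0.78 (limma, adjusted p = 0.0782). Cs has 3 tested probe sets and Idh3g 2, and with the mean of a gene's probe sets 0 genes of the TCA list were called in this step.

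**Figure D5:**
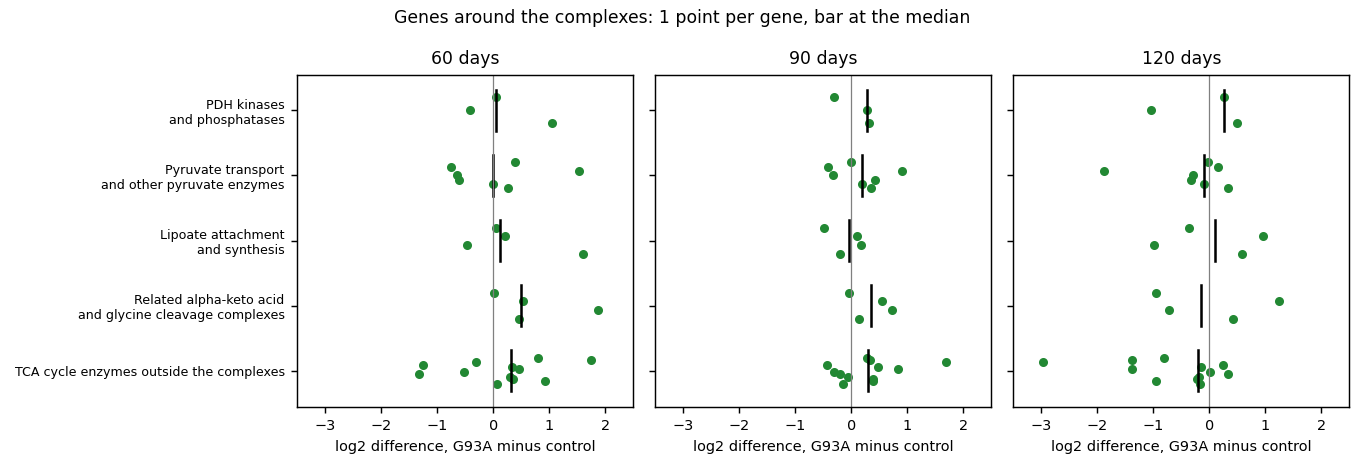
Log2 difference, G93A minus control, of the tested genes of 5 lists around the complexes at each age; each point is 1 gene and bars mark list medians. The TCA cycle list has a median of 0.32 at 60 days and -0.20 at 120 days, and no point is a called change.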

How the data were processed

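The authors' deposited values are probe set signal intensities, linear in scale, computed with MAS5 per the submitters' processing notes, with version and settings not given in the sources used here. Each array's trimmed mean (2% off each end) was 100.04 to 100.06. Signals were put on the log2 scale with values under 1 set to 1 (965 values, 0 of them of a subunit) and not normalized further. Probe sets above their array's median on at least 3 of 18 arrays were tested (16565). The 6 group means were modelled with limma 3.58.1 (R 4.3.3) with trended empirical Bayes moderation and 12 residual degrees of freedom. Two-sided p-values were adjusted over the 16565 within a comparison (Benjamini-Hochberg), with a threshold of 0.05. The script was tested on simulated data. The number of arrays limits precision: at one age the median standard error was 0.56 for the subunits and 0.69 over all. Symbols come from the platform annotation (20380 probe sets with 1 symbol, 691 with several, 1555 with none), and 20351 were matched by Entrez identifier to GRCm38.p6 genes. All subunit probe sets are named, as are list genes past the threshold and otherwise up to 4 of smallest p per list and comparison, and the 3 genes of highest correlation. Subunits, lists and markers were chosen with earlier results of these data known. Replicate numbers were not used as pairs: the labels name separate mice, and 0 of 9 same-numbered pairs correlated above 0.1 (r from -0.12 to 0.06). Alternatives were a pseudocount of 16, quantile normalization, median centring, no filter, only the arrays compared, no trend, a replicate block, 2 covariates (hybridization-control level, Gapdh ratio) and each array left out.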

Additional observations from a re-analysis of the deposited data

Results flagged for a closer look

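By a test of the change itself, the genotype difference of 2 probe sets was called as changed from 60 to 120 days. Of all tested probe sets 2.02% were called in this test. For Dlst 1423710_at the log2 difference between G93A and control mice changed by -5.15 (limma, adjusted p = 0.00595), and for Dlat 1452005_at by -2.08 (limma, adjusted p = 0.0193). In both, all 3 G93A mice of 60 days lay above all 3 controls, and at 120 days the G93A mean was the lower one.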

How the results depend on the processing

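The array number, the dim probe sets and the level of single arrays limit these results. Over the 30 subunit results with an unadjusted p below 0.05, 810 of 810 alternative values kept their direction, and over all 90 results 2341 of 2420 did. The 30 were picked by p in these same data, and many alternatives cannot move the estimate, so these counts are no test of it. Leaving out an array of another group, no filter and no trend leave a difference between 2 groups as it is. So do only the arrays compared and the replicate block. At 60 days the count of called subunit probe sets, 2, became 1 with a pseudocount of 16 and with no filter, and 0 with only the arrays compared, with no trend, with the hybridization-control level and with the Gapdh ratio. Leaving out 1 array gave 0 to 2. For the change from 60 to 120 days the count of 2 became 3 with centring, 1 with no trend and 0 with the hybridization-control level (Dlst -4.67, adjusted p = 0.0632, limma), and 1 to 3 with 1 array left out. In controls from 60 to 90 days the count of 2 became 1 with quantile normalization and with no filter, and 0 with only the arrays compared, no trend and the hybridization-control level, and 0 to 2 with 1 array left out. In controls from 60 to 120 days the count of 1 became 3 with centring, 2 with the hybridization-control level and 0 with the Gapdh ratio, and stayed at 1 with any array left out. In G93A mice from 60 to 120 days the count of 1 became 0 with centring, no filter, only the arrays compared, no trend, the hybridization-control level and the Gapdh ratio, and 0 to 1 with 1 array left out. At 90 days, at 120 days, over the mean of ages and in G93A mice from 60 to 90 days the count was 0 in every alternative. Fewer arrays enter the fit with only the arrays compared, and for the others the cause was not tested. Over all probe sets the calls at 60 days, 114, ranged from 1 to 267 and those of the change, 334, from 32 to 634. The replicate number as a block moved 1 subunit count, in controls from 60 to 90 days, from 2 to 1 (Pdhb 1.14, adjusted p = 0.0524, limma). It gave 139 calls over all probe sets at 60 days, and 4 of 9 arrays correlated best with their own number.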
